A study of Homo sapiens with 16 samples.

Results

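Hairpin shAHCY_2 is a short hairpin RNA (shRNA) against AHCY, and RAS-activated human fibroblasts given it were compared with such cells given no AHCY hairpin. The members were chosen by library title: the 4 libraries titled shAHCY2 (replicates 57 to 60) were set against the 4 titled EV+ (replicates 53 to 56, called EV_4OHT here), so 8 of the 16 libraries of the series make the comparison, and every gene tested in it belongs to it (13526 of 62069 gene identifiers). All 16 libraries come from IMR90 ER:RAS cells, a lung fibroblast line that carries a RAS oncoprotein joined to the ligand-binding part of the oestrogen receptor. 4-hydroxytamoxifen (4OHT) at 100 nM turns the fusion on, and the labels place all libraries at day 6 and passage 15. EV_4OHT is the labels' senescent control, given 4OHT and no AHCY hairpin, and the shAHCY_2 libraries were given 4OHT with the hairpin. The remaining groups, each with 4 libraries, were used only as marks on the scale: EV, the non-senescent control (replicates 49 to 52), and shAHCY_4, a separate hairpin against the same gene with 4OHT (replicates 61 to 64). There were no cells without the fusion that received 4OHT, and no shAHCY_2 cells without 4OHT. No group carried a hairpin that does not target AHCY, so lowering AHCY and expressing any hairpin cannot be told apart here. The labels do not say that the libraries of a group were separate cultures, so p-values here measure only the spread between libraries, which may be technical.

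AHCY encodes the hydrolase that splits S-adenosylhomocysteine into adenosine and homocysteine. S-adenosylhomocysteine is what S-adenosylmethionine leaves behind after giving up its methyl group, and it inhibits most methyltransferases when it is not removed. In fibroblasts with sustained RAS signalling, cells stop dividing, lose lamin B1, shut down the E2F and FOXM1 programmes of DNA replication and mitosis, and secrete cytokines, chemokines and proteases, a state named oncogene-induced senescence.

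Levels below are CPM, counts scaled to a common library size with TMM factors, and each run of 4 values follows the order of the replicate numbers. Fold changes are on the log2 scale with standard errors, from edgeR's quasi-likelihood test on counts, with p adjusted over all 13526 genes, and a gene is called higher or lower at an adjusted p under 0.05. Library totals ran from 12502278 to 15284201 counts in EV_4OHT and from 10066216 to 14692680 with shAHCY_2. Replicate 59 of shAHCY_2 stood apart. Its root mean square log2 difference to its own group was 0.499, against 0.318 to 0.404 in the other 15 libraries. The rank correlation of its levels, relative to the mean of all libraries, with gene GC content was -0.535, against -0.266 to 0.281 in the others. Values are given without replicate 59 where leaving it out ends a call or moves a count by over 1.5 times. The 12 fibroblast markers checked were all tested and summed to 5500 to 5720 CPM in EV_4OHT and 5590 to 6140 with shAHCY_2. Of 8 epithelial, 6 endothelial and 7 leukocyte markers, only 3, 3 and 1 passed the filter on low counts, and their sums reached at most 9.73, 4.86 and 1.2 CPM in any of the 8 libraries.

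AHCY (ENSG00000101444) was checked first. Its counts were 2023, 2072, 2583 and 2049 in EV_4OHT and 217, 266, 117 and 334 with shAHCY_2, which is 168, 163, 173 and 154 CPM against 20.1, 19, 12.1 and 22.8 CPM. Every hairpin library lay far below every control library, and the mean with shAHCY_2 was 11.3% of that in EV_4OHT (log2 fold change -3.14 ± 0.14, adjusted p = 3.54e-13). HRAS, whose counts would include reads from a transgene of that RAS gene if the fusion carries it, stood at 2672, 2521, 2674 and 2476 CPM in EV_4OHT and at 2512, 2458, 1856 and 2472 CPM with the hairpin. The HRAS difference was -0.15 ± 0.09 (adjusted p = 0.331), with replicate 59 lowest, so a loss of RAS expression in the hairpin libraries was not detected (95% interval -0.33 to 0.02). NRAS, another RAS gene, differed by 0.28 ± 0.09 (adjusted p = 0.0668), and passed with unscaled library totals (0.31) and in DESeq2 (0.27).

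A microRNA gene was counted almost only in hairpin libraries. MIR30A, chosen here after its values were seen, had 507, 706, 402 and 562 counts with shAHCY_2 and 0 in each EV_4OHT library. It held 0, 1, 0 and 0 counts in EV, and 234, 315, 328 and 346 with shAHCY_4. Against a floor of 3 counts over the EV_4OHT group (0.057 CPM, counting error only), the level over the shAHCY_2 group, 44.3 CPM, was at least 784-fold higher. Of 62069 genes it was the only gene with 0 counts in EV_4OHT and 20 or more over the shAHCY_2 libraries, the next highest holding 15. MIR30C2, a family member, had 0 counts in all 16 libraries. The MIR30A hairpin is shown because many shRNA vectors place their hairpin in the scaffold of this microRNA, keeping its loop and flanks and replacing the stem, so that a count at this gene can come from a vector transcript. The loop, bases 28 to 46, is in capitals (RefSeq, GRCh38.p14, chr6:71403551-71403621, minus strand):

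MIR30A hairpin: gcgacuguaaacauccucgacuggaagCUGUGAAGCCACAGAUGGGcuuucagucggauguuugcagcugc

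The labels do not name the vector, and the source of the MIR30A counts was not tested. MIR30A was also higher with shAHCY_2 than with shAHCY_4, by 0.83 ± 0.12 (adjusted p = 0.00123). The plot of AHCY and MIR30A counts by library shows the opposite split of the same libraries by these genes.

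**Figure D1:**
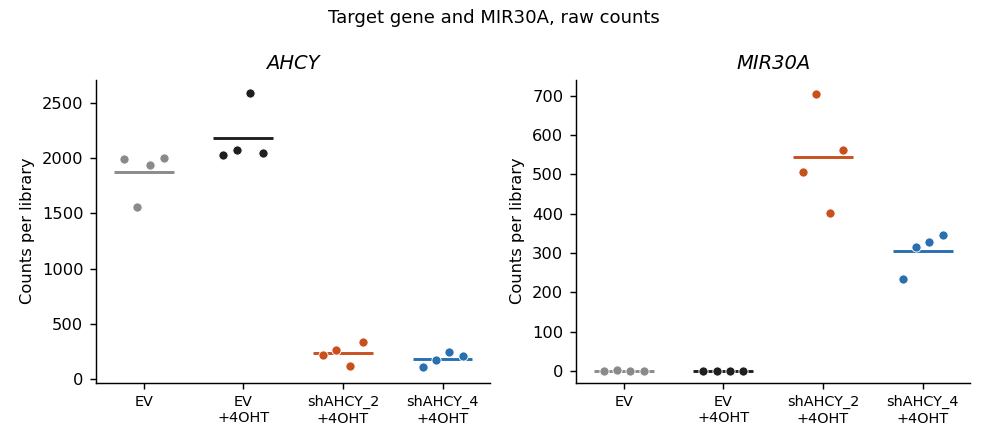
Counts of AHCY and MIR30A in each of the 16 libraries, by group, on linear axes; each point is a library and each bar the mean of 4. With shAHCY_2 the AHCY counts sit at 117 to 334 and the MIR30A counts at 402 to 706, while EV_4OHT has 2023 to 2583 and 0.

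Across the transcriptome, 944 of 13526 genes (6.98%) were called: 529 were higher with shAHCY_2 (3.91%) and 415 lower (3.07%). Counts of called list members below are to be read beside these shares. At least 2-fold changes were unequal between the directions, with 152 genes higher (1.12%) and 42 lower (0.311%). The median log2 fold change over all genes was 0.01. Leaving out EV_4OHT replicate 55 left 349 genes higher, and leaving out EV_4OHT replicate 54 left 273 lower. With unscaled library totals the median of all genes moved to 0.05 and 69.8% of calls were higher, against 56% here. With the GC trend of each library removed the balance turned, with 673 genes higher and 702 lower (48.9% higher). Lists of genes by role and of cell type markers held 191 of the 529 higher genes and 95 of the 415 lower ones. The lists by role name 1220 genes, not all of them tested, and were written with earlier results of these data known.

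The 10 largest increases among well-measured genes belonged to mitosis, DNA synthesis or the nucleus. They were APOBEC3B, NCAPG, PBK, KIF20A, CDK1, CKAP2L, PCLAF, NDC80, DEPDC1 and DLGAP5, with log2 fold changes from 1.92 ± 0.17 to 2.33 ± 0.15. Well-measured here means a mean log2 CPM of at least 3 over all 16 libraries, EV included. The filter therefore favours genes that are high in EV, and the roles of these genes partly follow from it. APOBEC3B averaged 24.1 CPM in EV, against 1.92 CPM in EV_4OHT and 9.63 CPM with shAHCY_2. MIR30A, with a larger difference, did not pass the filter. The 11 lists of cell cycle control, replication, nucleotide supply, repair and mitosis together held 206 genes, of which 205 were tested: 129 were higher, only CCND2 was lower, and 75 were not called (median 0.82, against 0.01 over all genes). Without replicate 59 the number higher was again 129, and after removal of the GC trend of each library it was 140. MKI67, the proliferation marker, rose by 1.84 ± 0.23. Written with earlier results of these data known, the lists cover 205 of the 13526 genes tested. They held 85 of the 152 genes that rose at least 2-fold and 0 of the 42 that fell as far. In bulk RNA, more cells in cycle and more of these transcripts per cell cannot be told apart.

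**Figure D2:**
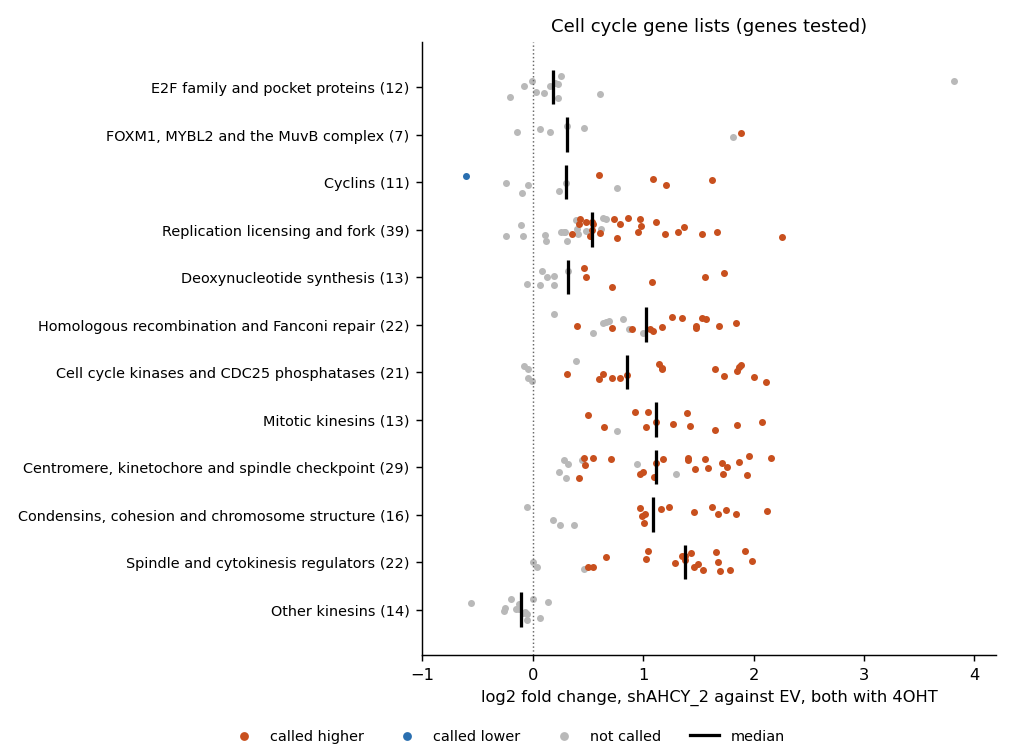
Log2 fold change with shAHCY_2 against EV_4OHT (horizontal axis) of every tested member of 11 cell cycle lists and of the other kinesins, 1 list per line with its number of tested genes; points are genes, coloured where called, and black bars are list medians. Most points of the mitotic lists lie above 0, and the other kinesins centre at -0.10.

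Among the regulators of this programme, FOXM1, the factor that drives G2 and mitosis genes, was at 1.75, 1.26, 1.34 and 0.902 CPM in EV_4OHT and at 5.27, 4.72, 4.05 and 5.26 CPM with shAHCY_2. The ranges did not overlap (1.89 ± 0.23, adjusted p = 7.43e-06), and the hairpin mean was 34.4% of the EV level. The E2F and pocket protein genes, the switch of S-phase entry, gave 0 calls among 12 tested in edgeR, DESeq2 or limma-voom. Over all genes 6.98% were called, so 0 of 12 does not set this list apart from all genes. At an unadjusted p under 0.05, 4 were higher and 0 lower, and the list median was 0.18. E2F1 itself differed by 0.03 ± 0.28. E2F8 had 0 counts in all EV_4OHT libraries and 0, 4, 0 and 2 with the hairpin, too few to compare, against 26 to 34 in EV. MYBL2, a partner of FOXM1 on mitotic promoters, had 0, 0, 4 and 0 counts in EV_4OHT and 2, 6, 3 and 3 with shAHCY_2, and was called only without EV_4OHT replicate 55 (adjusted p = 0.0276), when every control library is at 0, so no fold is given.

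Of 11 cyclin genes, CCNA2, CCNB1, CCNB2 and CCNE2 were higher and CCND2 was lower (median 0.30). CCNA2, cyclin A of S and G2 phase, stood at 7.98, 5.89, 6.96 and 5.94 CPM in EV_4OHT and at 21.9, 18.4, 21.3 and 21 CPM with shAHCY_2, with no overlap (1.62 ± 0.12). CCNB2, a mitotic cyclin, went from 15.3, 13.1, 11.8 and 11.5 to 29.2, 26.7, 26.8 and 27.4 CPM (1.09 ± 0.10, adjusted p = 1.21e-07). CCND2, a G1 cyclin, moved the other way, from 52.5, 61, 61.5 and 52.3 to 42.7, 31, 46.3 and 30.7 CPM (-0.60 ± 0.11, adjusted p = 0.00162), while CCND1, the main D-type cyclin of fibroblasts, differed by -0.04 ± 0.07. CCNE2, the cyclin of S-phase entry, was the least secure of the calls, lost when any of EV_4OHT replicates 53, 54 and 56 or shAHCY_2 replicates 57, 58 and 59 was left out (adjusted p up to 0.137).

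Of 21 cell cycle kinases, phosphatases and checkpoint genes, 16 were higher (median 0.85). CDK1, the kinase of mitotic entry, was at 6.82, 7.07, 7.43 and 8.12 CPM in EV_4OHT and at 25.3, 25.4, 41.9 and 26.1 CPM with the hairpin, replicate 59 being the highest (2.0 ± 0.18). PLK1 and BUB1, a mitotic kinase and a spindle checkpoint kinase, rose by 1.87 ± 0.14 and 1.65 ± 0.11. PBK, a mitotic kinase, rose by 2.11 ± 0.13.

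Most genes of the mitotic machinery rose. Of 13 mitotic kinesins, the motors of the spindle, 12 were higher (median 1.12), beside 3.91% of all genes called higher. Of 14 kinesins that carry cargo in other settings, 0 were called by edgeR, DESeq2 or limma-voom (1 lower at an unadjusted p under 0.05, median -0.10). Over all genes 6.98% were called, so 0 of 14 does not set the other kinesins apart from all genes. KIF20A, a motor of cytokinesis, was at 4.82, 3.46, 3.35 and 2.93 CPM in EV_4OHT and at 19.5, 15.1, 9.03 and 17.2 CPM with shAHCY_2 (2.08 ± 0.20). Replicate 59 was its lowest hairpin library and still lay above every control library. KIF2C, KIF4A and KIFC1, of chromosome alignment and spindle building, rose by 1.85 ± 0.13, 1.40 ± 0.21 and 1.12 ± 0.18.

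Of 29 kinetochore and centromere genes, 22 were higher (median 1.12), among them SPC24, SKA3, HJURP and ZWINT with increases from 1.41 ± 0.09 to 1.76 ± 0.13. Of 16 condensin, cohesin and topoisomerase genes, 12 were higher (median 1.09). NCAPG, a condensin I subunit that compacts chromosomes, was at 6.32, 6.6, 7.16 and 5.56 CPM in EV_4OHT and at 21.4, 27.7, 37.4 and 26 CPM with the hairpin (2.12 ± 0.18, adjusted p = 3.49e-08), and TOP2A, which untangles sister chromatids, rose by 1.62 ± 0.12. Of 22 spindle, cytokinesis and anaphase genes, 19 were higher (median 1.38), among them ANLN, of the contractile ring, by 1.5 ± 0.09 and BIRC5, of the chromosomal passenger complex, by 1.70 ± 0.11.

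The promoters of 4 of these genes are shown because many G2 and mitosis genes carry a cell cycle homology region (CHR), where the MuvB complex binds with MYBL2 and FOXM1 or with pocket proteins, often beside CCAAT boxes. Each line gives the 150 bases before the listed start, from RefSeq (GRCh38.p14), with CHR letters (TTTGAA or TTTAAA on either strand) and CCAAT boxes (CCAAT or ATTGG) in capitals. They lie at chr15:59104996-59105145 (CCNB2), chr5:138178962-138179111 (KIF20A), chr10:60778328-60778477 (CDK1, the second of 2 starts listed) and chr4:17810829-17810978 (NCAPG), all on the plus strand:

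CCNB2: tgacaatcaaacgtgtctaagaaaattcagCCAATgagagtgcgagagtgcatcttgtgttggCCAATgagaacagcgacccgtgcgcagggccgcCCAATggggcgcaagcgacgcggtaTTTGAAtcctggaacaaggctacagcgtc

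KIF20A: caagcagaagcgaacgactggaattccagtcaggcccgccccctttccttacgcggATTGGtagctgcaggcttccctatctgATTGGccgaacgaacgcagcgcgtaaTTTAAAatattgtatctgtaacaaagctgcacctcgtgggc

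CDK1: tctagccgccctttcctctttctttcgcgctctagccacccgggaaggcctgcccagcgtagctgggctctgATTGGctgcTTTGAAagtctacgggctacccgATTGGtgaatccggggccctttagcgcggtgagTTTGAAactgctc

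NCAPG: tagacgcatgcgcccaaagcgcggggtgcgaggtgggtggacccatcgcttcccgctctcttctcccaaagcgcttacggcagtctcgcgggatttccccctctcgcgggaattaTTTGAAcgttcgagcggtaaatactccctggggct

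CCNB2 held 1 CHR and 3 CCAAT boxes, KIF20A 1 and 2, CDK1 2 and 2, and NCAPG 1 CHR and 0 CCAAT boxes. Shares were taken over 300-base promoters (250 bases before to 50 after the start). Each gene counted once, as holding a motif if any of its listed promoters did, so genes with more listed starts had more chances of a match. A CHR sequence was held by 58 of the 83 genes matched in the kinase, kinesin, kinetochore, condensin and spindle lists (69.9%). Over the 10343 tested genes with a promoter the share was 21.7%. CHR and CCAAT together were held by 49.4% of these mitosis genes and by 9.04% of all. By call, 38% of the 424 matched genes higher with shAHCY_2 held a CHR, and 22.1% of the 294 lower with it. These are matches of letters and carry no test, and the lists themselves include known targets of this complex.

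Genes of DNA replication had a lower median than the mitotic lists, a difference that was not tested. Of 39 replication origin and fork genes, 23 were higher (median 0.54), and 30 were once the GC trend of each library was removed. MCM10, which helps activate the replicative helicase, was at 0.831, 1.57, 1.07 and 1.05 CPM in EV_4OHT and at 4.72, 7.44, 2.91 and 6.35 CPM with the hairpin (2.26 ± 0.26). GINS2, part of that helicase, went from 4.24, 5.03, 4.42 and 3.31 to 9.9, 9.51, 12.7 and 12.1 CPM (1.37 ± 0.16). CDC6, the origin licensing factor, rose by 1.32 ± 0.15 and CLSPN, a fork checkpoint adaptor, by 1.53 ± 0.18.

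Of 13 genes of nucleotide supply, 6 were higher (median 0.32). RRM2, the cell cycle regulated subunit of ribonucleotide reductase, stood at 33.7, 36.7, 34.5 and 32 CPM in EV_4OHT and at 109, 117, 113 and 116 CPM with shAHCY_2 (1.73 ± 0.07, adjusted p = 3.19e-13). Its partner RRM1 rose by 0.46 ± 0.07, and TK1, the S-phase thymidine kinase, by 1.56 ± 0.13. Of 22 homologous recombination and Fanconi anaemia genes, 14 were higher (median 1.03). RAD51AP1, a recombination factor, went from 2.74, 1.96, 2.81 and 1.88 to 8.51, 6.87, 11.9 and 6.97 CPM (1.84 ± 0.21).

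E2F motifs were held by a larger share of the replication genes than of the mitosis genes. GINS2 is shown as a replication promoter with an E2F motif in capitals (chr16:85688955-85689104, minus strand, 150 bases before the start):

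GINS2: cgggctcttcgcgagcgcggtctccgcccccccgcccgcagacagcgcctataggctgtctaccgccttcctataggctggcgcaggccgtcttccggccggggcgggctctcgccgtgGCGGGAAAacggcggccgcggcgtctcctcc

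The letters searched were TTTCCCGC, TTTGGCGC, TTTCGCGC and TTTGCCGC on either strand, so that GCGGGAAA is a reverse match. Counted once per gene, they were found for 19 of 33 replication genes (57.6%), 12% of the mitosis genes and 6.62% of all tested genes with a promoter. A CHR was found for 6.06% of the replication genes. Both kinds of gene rose with the hairpin, and no test separates them by motif.

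Some genes of the nuclear envelope and chromatin were higher as well. LMNB1, the B-type lamin of the nuclear lamina, was at 0.582, 1.41, 1.67 and 1.2 CPM in EV_4OHT and at 6.85, 5.22, 7.26 and 5.05 CPM with shAHCY_2 (2.27 ± 0.21, adjusted p = 1.96e-07). That is 17% of the EV level with the hairpin and 3.41% without it. Of 13 lamina and inner membrane genes, 3 were higher: LMNB1, TMPO (0.82) and LBR (0.46). LMNA, the A-type lamin gene, did not pass, at means of 852 and 857 CPM beside 1450 CPM in EV (0.01 ± 0.09). HMGB2, a chromatin protein of dividing cells, went from 9.73, 10.1, 9.51 and 7.82 to 22.2, 20.4, 24.8 and 19.5 CPM, and 5 of 10 high mobility group genes were higher. Of 17 histone genes, 6 were higher and 1 was lower, H2BC4 (-0.40, named after its values were seen). The number lower was 3 without shAHCY_2 replicate 59 and 0 when any of EV_4OHT replicates 54 and 56 or shAHCY_2 replicates 57, 58 and 60 was left out, with unscaled library totals, with no filter on low counts or with only the groups compared. H4C3, a replication-dependent histone gene as H2BC4 is, had the largest increase among the histone genes called (1.16 ± 0.15). Histone and high mobility group genes have near-identical copies, between which the counting may have split reads.

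APOBEC3B, a cytidine deaminase that edits single-stranded DNA, had the largest increase among well-measured genes. It stood at 1.83, 2.44, 1.61 and 1.8 CPM in EV_4OHT and at 9.71, 10.2, 8.2 and 10.4 CPM with shAHCY_2 (2.33 ± 0.15, adjusted p = 4.99e-10), 39.9% of the EV level. It was the only called gene of 4 tested in its family, and APOBEC3C differed by 0.09.

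**Figure D3:**
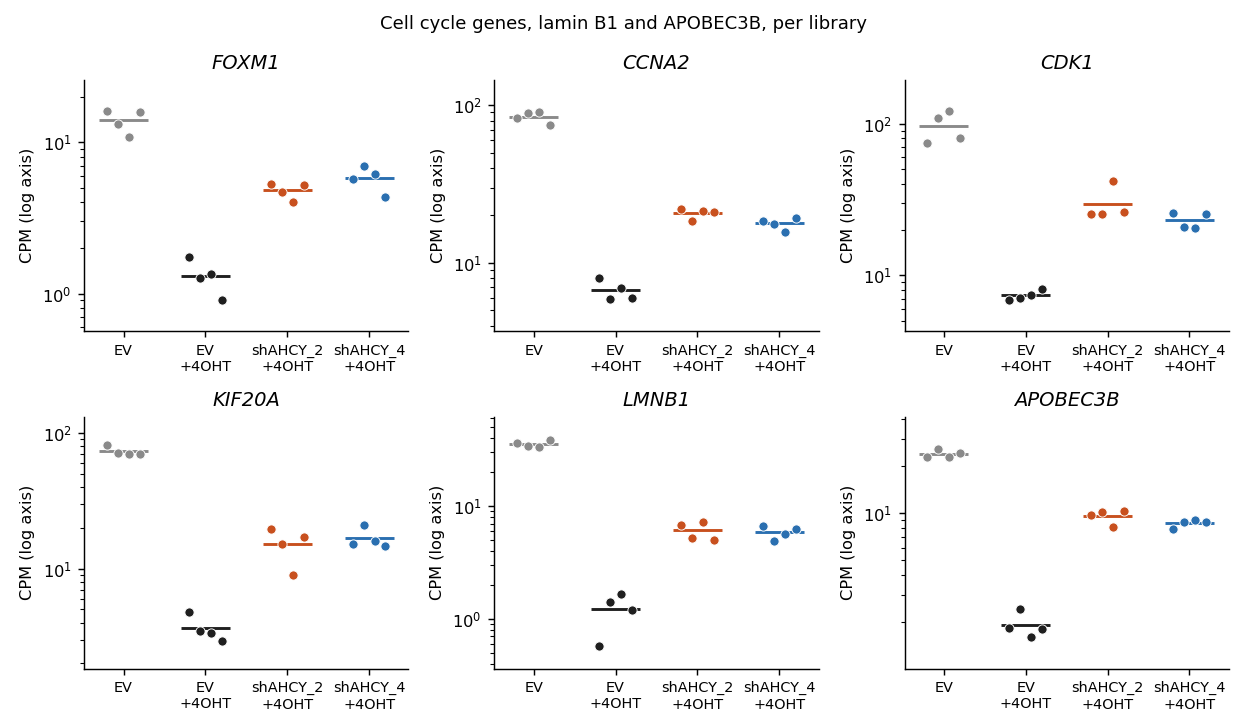
CPM of FOXM1, CCNA2, CDK1, KIF20A, LMNB1 and APOBEC3B in each library of the 4 groups, on log axes; points are libraries and bars are means. In each panel the 4 shAHCY_2 libraries lie above the 4 EV_4OHT libraries and below the EV libraries.

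The shift was partial. Of the 129 cell cycle genes called higher, 125 remained below EV in the test against EV (in which 48.1% of all genes were called). The median level of the 129 was 35.5% of EV with shAHCY_2, against 15.4% in EV_4OHT. They were picked for being higher than EV_4OHT in these libraries, so the direction of that step was set in advance. The 75 genes not called and CCND2 are left out of these medians. The exceptions, chosen after their values were seen, were CDK2, CHEK1, CENPQ and DSN1. CDK2, the kinase partner of cyclins E and A, exceeded EV, with means of 64.1 CPM in EV, 68.7 in EV_4OHT and 107 with the hairpin (0.74 ± 0.08 above EV). CHEK1, a checkpoint kinase, reached 30.3 CPM against 31.2 in EV, and a difference from EV was not called for it, CENPQ or DSN1.

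Genes of the CDK inhibitors that hold the arrest showed small differences. CDKN1A, which encodes p21, differed by -0.10 ± 0.08 (adjusted p = 0.475, 95% interval -0.25 to 0.05). CDKN2A, of p16 and ARF, was lower by 0.32 on the log2 scale (-0.32 ± 0.09, adjusted p = 0.0286), a call lost without any of EV_4OHT replicates 54, 55 and 56 or shAHCY_2 replicates 57 and 60 (adjusted p up to 0.0936). It was also lost with library totals (adjusted p = 0.0594), with no filter on low counts (0.0658) and with the GC trend removed (0.0519). CDKN2B, its neighbour, differed by -0.09 (adjusted p = 0.636), and was called lower only without replicate 59 (-0.25, adjusted p = 0.0327). CDKN3, a phosphatase of CDK1 whose RNA peaks in mitosis, went from 4.57, 4.56, 4.42 and 5.79 to 12.9, 12.8, 13.4 and 14 CPM (1.46 ± 0.14).

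Several inflammatory ligands of the secretory programme were lower, beside 3.07% of all genes called lower. The calls were 5 of 8 CXC chemokines, 2 of 7 CCL chemokines and colony-stimulating factors, and 3 of 12 IL6 family and receptor genes. In the IL1 family 1 of 7 was called lower, IL1B. IL1B, a cytokine near the top of the programme, was at 124, 136, 129 and 135 CPM in EV_4OHT and at 79.8, 79, 85.7 and 81.1 CPM with shAHCY_2 (-0.69 ± 0.11, adjusted p = 0.000351). CXCL8, a neutrophil chemokine, went from 320, 334, 348 and 343 to 179, 188, 240 and 202 CPM (-0.73 ± 0.11, adjusted p = 0.000144). No library of either group crossed into the other, and both genes stayed far above EV, where they averaged 0.278 and 3.14 CPM. IL1A, the membrane-bound partner of IL1B, differed by -0.55 ± 0.20 without passing (adjusted p = 0.0945), and passed with the GC trend removed (-0.67), in DESeq2 (-0.56) and in limma-voom (-0.58).

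IL6, a cytokine of the same programme, was at 4.16, 6.99, 7.57 and 6.47 CPM in EV_4OHT and at 3.52, 2.86, 3.42 and 2.39 CPM with the hairpin (-1.06 ± 0.24, adjusted p = 0.00793). These levels rest on 50 to 113 counts per control library and 33 to 40 per hairpin library. CLCF1, an IL6-family cytokine, went from 32.8, 29.2, 35.2 and 25.6 to 18.9, 20.3, 13.2 and 19.7 CPM (-0.76 ± 0.14). Of 8 CXC chemokines tested, 5 were lower (median -0.64), and 3 were when any of EV_4OHT replicates 54, 55 and 56 or shAHCY_2 replicates 57 and 58 was left out. CXCL1, a chemokine close in sequence to CXCL2 and CXCL3, fell by 0.78 on the log2 scale (-0.78 ± 0.18). Single libraries decided CXCL2 (-0.70, lost without replicate 55, 57 or 58), CXCL3 (-0.58, lost without 54, 56 or 57) and CXCL10 (-1.52, lost without any of 53 to 56, 58 and 60). CSF3, the granulocyte growth factor, went from 17.1, 18.7, 20.8 and 15.4 to 9.53, 10.1, 12.6 and 10.2 CPM (-0.77 ± 0.15), with 0 counts in EV.

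Of 8 genes of the EGF family and its receptors, 3 were lower, all of them ligands (median -0.40). EREG, epiregulin, stood at 247, 221, 278 and 256 CPM in EV_4OHT and at 158, 162, 194 and 156 CPM with shAHCY_2 (-0.58 ± 0.12), and NRG1, neuregulin, differed by -0.46 and was called. PTGS2, the inducible cyclooxygenase of prostaglandin synthesis, went from 43, 39.4, 44.3 and 40.5 to 28.8, 22.8, 28.7 and 18.8 CPM (-0.76 ± 0.15, adjusted p = 0.00285). It was the only lower gene among 11 of prostaglandin synthesis and reception, of which 2 were higher. Without shAHCY_2 replicate 59, 3 of them were lower and 1 higher, and 0 were higher without EV_4OHT replicate 53 or 54 or shAHCY_2 replicate 57. STC2, a secreted glycoprotein, fell from 370, 369, 391 and 367 to 242, 256, 207 and 252 CPM (-0.65 ± 0.08, adjusted p = 6.26e-06). It averaged 633 CPM in EV, so for STC2 the level with the hairpin lay further from the non-senescent state.

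The secretory change was not uniform. TNFRSF11B, the decoy receptor osteoprotegerin, rose from 173, 178, 164 and 178 to 233, 220, 223 and 212 CPM (0.36 ± 0.06). It was the only higher gene among 13 TNF family ligands and receptors tested, of which 4 were lower (median -0.19). CASP1, the inflammasome protease that matures IL1B, rose from 8.56, 9.9, 6.43 and 9.85 to 17.9, 13.5, 17.2 and 18.4 CPM (0.95 ± 0.15, adjusted p = 0.000204). MMP1, a collagenase of the programme, was called higher (0.27) and MMP2, a gelatinase, lower (-0.34). The NF-kB subunits and inhibitors, which act upstream of these cytokines, had 1 of 12 lower and a median of -0.24. That count was 0 with library totals, with only the groups compared, or when any of EV_4OHT replicates 54 to 56 or shAHCY_2 replicates 57, 58 and 60 was left out, 2 in DESeq2 and 3 with the GC trend removed. The C/EBP genes, further upstream regulators, gave 0 calls among 5 in edgeR, DESeq2 or limma-voom (1 lower at an unadjusted p under 0.05). Over all genes 6.98% were called and 3.07% were called lower, so the NF-kB and C/EBP counts do not set these lists apart from all genes.

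Genes that report RAS signalling gave calls in both directions, beside the 6.98% called over all genes. Among 14 immediate early genes, 1 was higher and 2 were lower (median -0.09). Of 14 ERK feedback genes, whose RNA follows ERK activity, PHLDA1 was higher (0.40, lost without EV_4OHT replicate 55, adjusted p = 0.0507) and DUSP5, a nuclear ERK phosphatase, was lower (-0.54; median of the list -0.09). DUSP6, the ERK phosphatase induced by ERK itself, was at 745, 723, 731 and 776 CPM in EV_4OHT and at 794, 765, 976 and 747 CPM with shAHCY_2, with overlapping ranges (0.14 ± 0.07, adjusted p = 0.257, 95% interval 0.00 to 0.28). Of 12 AP-1 genes, 0 were called in edgeR, DESeq2 or limma-voom, with 1 higher and 3 lower at an unadjusted p under 0.05, and MYC differed by -0.09 (adjusted p = 0.599).

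Antioxidant genes under NRF2, the factor that answers electrophile and oxidant stress, were lower. Of 26 tested, 11 were lower and 0 higher (median -0.35), in edgeR and limma-voom alike, beside 3.07% of all genes called lower in edgeR. There were 12 lower and 0 higher in DESeq2, and 17 and 0 at an unadjusted p under 0.05. The count was 7 without EV_4OHT replicate 53 or 54, and 8 without shAHCY_2 replicate 59. AKR1C1, an aldo-keto reductase with close paralogs that can share its reads, was at 66.9, 55.8, 62.1 and 59.5 CPM in EV_4OHT and at 24.5, 27.2, 24 and 36.6 CPM with the hairpin (-1.11 ± 0.14, adjusted p = 9.36e-06). HMOX1, haem oxygenase 1, went from 200, 159, 187 and 158 to 99.3, 93, 71.3 and 117 CPM (-0.88 ± 0.13, adjusted p = 0.000151). Both groups of libraries kept apart for each gene, and the hairpin means lay at 28.1 and 95.1 CPM beside 32.2 and 35.6 CPM in EV. HMOX1 was still called above EV (1.42 ± 0.14), and AKR1C1 was not called against it (-0.19 ± 0.14). AKR1B1, a related reductase, fell by 0.61 on the log2 scale (-0.61 ± 0.07), and PRDX1, a peroxidase, by 0.40 (-0.40 ± 0.06). The antioxidant response element core TGACNNNGC was found in a promoter of 5 of 18 matched genes of this list (27.8%). Over all tested genes with a promoter the share was 19.6%.

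RNAs of the mitochondrial genome were lower, and those of the nuclear genes for the same complexes were not called. Of 13 protein-coding genes of the mitochondrial genome, 11 were lower (median -0.38), and all 13 were at an unadjusted p under 0.05. Over all genes 3.07% were called lower. MT-ND1, a complex I subunit, was at 1202, 1279, 1324 and 1270 CPM in EV_4OHT and at 725, 703, 768 and 726 CPM with shAHCY_2 (-0.80 ± 0.08, adjusted p = 6.38e-07), close to its EV mean of 692 CPM. MT-CO1, of complex IV, and MT-ND6, the complex I subunit encoded on the opposite strand, fell by 0.70 and 0.55 on the log2 scale. Of 43 nuclear genes of the respiratory chain, 0 were called in edgeR or limma-voom, beside 6.98% of all genes called in edgeR. In DESeq2, 1 was higher and 2 were lower. At an unadjusted p under 0.05, 3 were higher and 5 lower (median -0.04). Without shAHCY_2 replicate 59, 1 was called in each direction. The difference between the mitochondrial and the nuclear list was not tested. The share of all counts from the mitochondrial genome was 6.34% to 6.47% in EV_4OHT and 4.78% to 5.33% with the hairpin.

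Of 77 cytosolic ribosomal protein genes, 8 were lower (median -0.16), beside 3.07% of all genes called lower. That number was 2, 3, 4 and 3 without EV_4OHT replicates 54 and 56 and shAHCY_2 replicates 57 and 58, and 13 in DESeq2. Of 30 lysosomal genes, 9 were lower and GUSB, a glucuronidase, was higher (0.52), and 16 were lower with the GC trend removed. NPC1, which moves cholesterol out of lysosomes, was lower (-0.61), as was the lysosomal galactosidase gene GLA (-0.40). The autophagy receptors SQSTM1 and OPTN were lower as well (-0.39 and -0.40), 2 of the 3 called among 17 autophagy genes. Of 25 glycolysis and hypoxia genes 0 were called in edgeR or limma-voom, and 1 was lower in DESeq2 (1 higher and 4 lower at an unadjusted p under 0.05). Over all genes 6.98% were called, so 0 of 25 does not set this list apart from all genes.

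**Figure D4:**
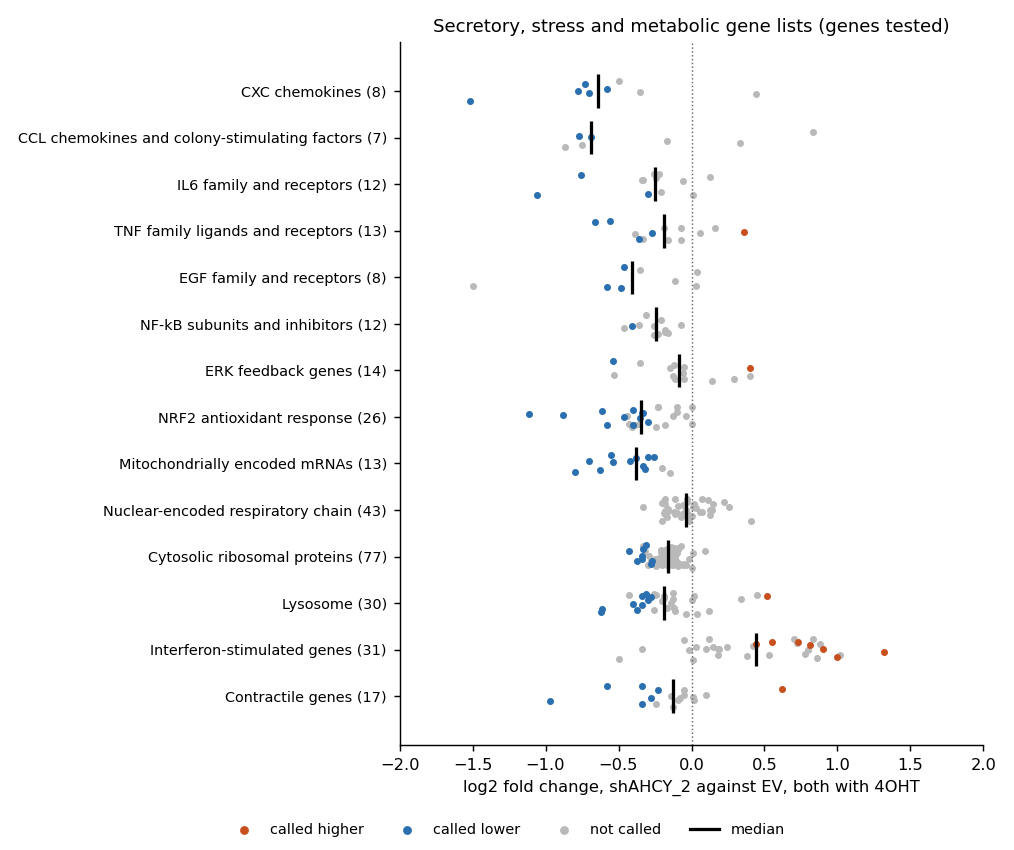
Log2 fold change with shAHCY_2 against EV_4OHT (horizontal axis) of every tested member of secretory, signalling, stress, metabolic and contractile lists; points are genes, coloured where called, and black bars are list medians. The medians of the CXC chemokine (-0.64), NRF2 (-0.35) and mitochondrially encoded (-0.38) lists lie below 0 and that of the interferon list above it (0.44).

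Interferon-stimulated genes went up in part. Of 31 tested, 7 were higher and 0 lower (median 0.44), beside 3.91% of all genes called higher. There were 13 higher and 0 lower at an unadjusted p under 0.05, 9 and 0 in DESeq2, and 7 and 0 in limma-voom. USP18, which restrains the interferon receptor, was at 20, 14.9, 14.4 and 17.7 CPM in EV_4OHT and at 28.4, 29.8, 29.4 and 29.4 CPM with shAHCY_2 (0.81 ± 0.12, adjusted p = 9.76e-05). IFIT1, which binds foreign RNA, went from 1.58, 3.38, 2.95 and 3.31 to 7.96, 8.37, 5.09 and 6.62 CPM (1.32 ± 0.27, adjusted p = 0.00325). USP18 exceeded its EV mean of 14.6 CPM, while IFIT1 stayed below its EV mean of 13.4 CPM. IFI6 and IFI35, further genes of the set, rose by 0.90 ± 0.18 and 1.0 ± 0.21, and PSMB9, an immunoproteasome subunit of antigen presentation, by 1.12. The IFIT1 promoter is shown with both matches to the interferon response core (GAAANNGAA, either strand) in capitals (chr10:89392473-89392622, plus strand, 150 bases before the start):

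IFIT1: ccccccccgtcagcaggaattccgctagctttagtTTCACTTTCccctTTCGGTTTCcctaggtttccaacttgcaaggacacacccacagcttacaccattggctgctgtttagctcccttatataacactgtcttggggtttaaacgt

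The core was found in a promoter of 19 of 26 matched genes of the interferon list (73.1%) and of 8.77% of all tested genes with a promoter. It was found for 11.3% of the matched genes higher with the hairpin and for 10.2% of those lower.

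Calls among genes of the pathway in which AHCY acts went in both directions, beside the 6.98% called over all genes. Of 13 methionine cycle genes, AHCY was the only one lower, and MAT2B, the regulatory subunit of the enzyme that makes S-adenosylmethionine, was the only one higher (median 0.06). MAT2B was at 96.3, 92.9, 99.2 and 102 CPM in EV_4OHT and at 134, 123, 168 and 128 CPM with shAHCY_2 (0.50 ± 0.09, adjusted p = 0.00141), near its EV mean of 137 CPM. Of 16 folate and serine genes 3 were higher, among them TYMS, which makes thymidylate and also belongs to the S-phase genes. TYMS went from 11.9, 12.6, 12.3 and 10.5 to 20.1, 18.8, 22.4 and 17 CPM. Of 12 genes that handle adenosine, the other product of AHCY, 1 was higher and 2 were lower, and 1 was lower when any of EV_4OHT replicates 53 and 56 or shAHCY_2 replicates 57, 58 and 60 was left out. ADORA2B, an adenosine receptor, was the higher gene (0.66), and PNP, which splits inosine, was among the lower (-0.45). SRM, the polyamine enzyme that uses decarboxylated S-adenosylmethionine, was lower (-0.38). NSD2, which methylates histone H3 at lysine 36, was higher (0.61), one of 2 called among 23 DNA and histone methylation genes.

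Matrix and contractile genes showed smaller and mixed changes, beside 3.91% of all genes called higher and 3.07% called lower. FBLN1, fibulin 1 of elastic fibres, was at 17.8, 20.3, 19.7 and 14.7 CPM in EV_4OHT and at 32.3, 28.4, 32.1 and 33.3 CPM with shAHCY_2 (0.79 ± 0.10, adjusted p = 2.15e-05), below its EV mean of 111 CPM. POSTN, periostin, went from 298, 307, 318 and 360 to 459, 486, 695 and 384 CPM, and VCAN, a large proteoglycan, rose by 0.39. They were 3 of the 4 higher among 26 proteoglycan and elastic fibre genes, of which 7 were higher with the GC trend removed. CNN1, a smooth muscle calponin, went from 7.15, 7.07, 7.43 and 7.6 to 5.37, 4.51, 4.36 and 5.26 CPM (-0.58 ± 0.13). It was 1 of 6 lower among 17 contractile genes, with MYH10, a non-muscle myosin, the only one higher (0.62). CLDN11, a tight junction protein chosen after its values were seen, rose from 66.4, 73.9, 65.4 and 71.2 to 180, 175, 315 and 181 CPM (1.62 ± 0.21, adjusted p = 2.08e-05), against 1350 CPM in EV. ITGB3, an integrin subunit, was lower (-0.79).

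AHCY aside, the largest decreases among well-measured genes were smaller than the largest increases and came from mixed roles. After AHCY came AKR1C1, NEDD4L, MT-TS1, MYPN, HMOX1, TBC1D2, ENDOD1, PLPP2 and HEG1, the last at -0.82. The filter on the mean of all 16 libraries left out called genes that are low in EV. Among these were CXCL10 (-1.52, 0.355 CPM in EV) and IL6 (-1.06, 1.69 CPM in EV), so the roles and sizes in this ranking depend on the filter. NEDD4L, a ubiquitin ligase of ion channels, went from 30.1, 24.7, 24 and 20.2 to 12.7, 10.3, 11.7 and 13.6 CPM (-1.03 ± 0.15, adjusted p = 0.0001). TBC1D2, a RAB GTPase regulator, went from 181, 153, 176 and 163 to 98.7, 93.5, 66.1 and 108 CPM (-0.87 ± 0.12, adjusted p = 4.82e-05). MYPN, a sarcomere protein, went from 17.4, 17.4, 16.2 and 14.1 to 9.81, 8.3, 5.81 and 9.08 CPM. In all 3 the highest hairpin library lay below the lowest control library.

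**Figure D5:**
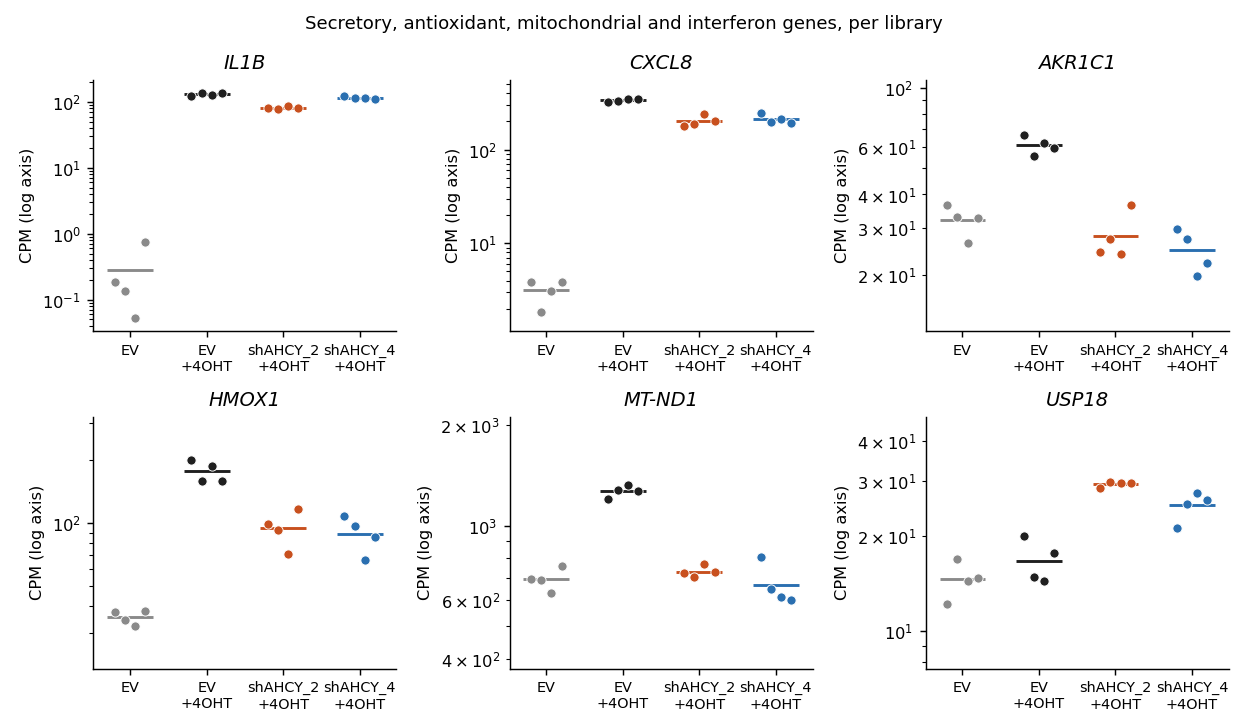
CPM of IL1B, CXCL8, AKR1C1, HMOX1, MT-ND1 and USP18 in each library of the 4 groups, on log axes; points are libraries and bars are means. The first 5 genes are lower in all 4 shAHCY_2 libraries than in all 4 EV_4OHT libraries, and USP18 is higher.

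Against shAHCY_4, which lowered AHCY to 14.7 CPM on average beside 18.5 CPM here, 168 genes were called (1.24% of 13526), 95 higher with shAHCY_2 (0.702%) and 73 lower (0.54%). The shAHCY_4 comparison with EV_4OHT uses the same control libraries, so likeness between the hairpins is not read from it. Of the 129 cell cycle genes, 0 differed between the hairpins in edgeR or limma-voom, and 1 was higher and 2 were lower with shAHCY_2 in DESeq2 (7 and 14 at an unadjusted p under 0.05). These genes were picked for their level with shAHCY_2, and the few calls do not show that the hairpins act alike on them.

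Among the genes with the largest differences between the hairpins, ASPH, a hydroxylase of the endoplasmic reticulum, was at 1251, 1295, 1479 and 1214 CPM with shAHCY_2 and at 710, 630, 642 and 652 CPM with shAHCY_4 (0.99 ± 0.07, adjusted p = 5.12e-08). G0S2, an inhibitor of triglyceride breakdown, was at 20.1, 19.2, 16 and 27.2 CPM against 51.9, 55.6, 48.2 and 44.6 CPM (-1.27 ± 0.14, adjusted p = 2.83e-05). For both genes the libraries of the hairpins did not overlap. LCOR, a nuclear receptor corepressor, was also higher with shAHCY_2 (1.0 ± 0.18), as were LCE2A, ID1 and PTPRN by 0.92 to 0.97. SRGN, CCBE1, LRRC15 and TMEM119 were lower with it (-1.01 to -0.78). The call was lost for LRRC15 without shAHCY_2 replicate 58 or shAHCY_4 replicate 64 (adjusted p up to 0.0727), and for TMEM119 without any of shAHCY_2 replicates 57 to 60 or shAHCY_4 replicates 62 to 64 (adjusted p up to 0.127).

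Among the genes described above, IL1B was lower with shAHCY_2 than with shAHCY_4, whose mean was 116 CPM (-0.51 ± 0.11, adjusted p = 0.0255), a call lost when any library of these groups other than shAHCY_2 replicate 59 was left out (adjusted p up to 0.0848). AKR1B1 was lower (-0.49, adjusted p = 0.000833) and so was CNN1 (-0.72, adjusted p = 0.00565, but 0.0662 with only the groups compared in the fit). TNFRSF11B was higher (0.41, adjusted p = 0.0013), with a mean of 167 CPM with shAHCY_4, and MAT2B was higher (0.49, adjusted p = 0.0091), with a mean of 98.6 CPM with shAHCY_4, a call lost without shAHCY_4 replicate 62 (adjusted p = 0.0506). NRAS was higher with shAHCY_2 as well (0.53). Leaving out shAHCY_4 replicate 64 left 38 genes higher in this comparison, leaving out replicate 62 left 28 lower, and DESeq2 called 240 and 247.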

How the data were processed

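The 16 IMR90 ER:RAS libraries were made by Smart-Seq2, per the labels' protocols, which does not mark strand, so antisense and overlapping genes cannot be told apart. Per the submitters' processing notes, the tools were CASAVA 1.8.2, TopHat2 2.0.11 and featureCounts 1.18.0 on hg19/GRCh37. Annotation release, strand setting and handling of multi-mapped reads: not given in the sources used here. The deposited values were whole-number counts per gene, not normalized. Symbols were matched for 50127 of 62069 identifiers.

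Starting from these counts, edgeR 4.0.16 (R 4.3.3) kept genes with filterByExpr (13526), computed TMM factors and fitted a quasi-likelihood model to the 16 libraries, one mean for each group (biological coefficient of variation 11.9%). The two-sided p-values were adjusted by Benjamini-Hochberg over all genes tested, with a threshold of 0.05. The standard error of a log2 fold change was its size over the root of F. Alternatives were RLE and upper-quartile scaling, library totals, no filter, 10 counts in 8 libraries, removal of each library's GC trend, DESeq2 1.42.0, limma-voom (3.58.1), only the groups compared, and each library left out. On simulated counts (13104 genes run, this comparison), 88% of genes changed 2-fold and 66.7% of those changed 1.5-fold were called, with 6.11% false calls. The simulated libraries held no GC trend and none that stood apart as shAHCY_2 replicate 59 did, so these rates need not hold for the real ones.

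The members and the 69 gene lists (1220 genes) were chosen with earlier results of these data known. Named genes were AHCY, HRAS and NRAS; the 10 largest changes per direction (adjusted p under 0.05, mean log2 CPM of at least 3, no clone names, ranges apart); the 4 smallest adjusted p in each list, or any member in lists of up to 16; CDKN1A, CDKN2A, CDKN2B, LMNB1, CCNA2, MKI67, CCND1, MYC, IL6, CXCL8, IL1A and IL1B; and the 5 largest per direction against shAHCY_4. Some genes that this rule names are not reported here. Others are marked as chosen after their values were seen. Motifs were searched in RefSeq promoters of GRCh38.p14, another build than that of the counts, matched by symbol and counted once per gene over its listed starts.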

Additional observations from a re-analysis of the deposited data

Results flagged for a closer look

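In 23 of 260 sets of 4 libraries (130 named genes in EV_4OHT and in shAHCY_2), 1 library lay apart from the other 3 by a share of the whole range above Dixon's 95% critical value. Chance alone gives about 1 in 20 such sets. Of these, 15 were in shAHCY_2 replicate 59. In CPM, that library was the highest for CDK1 (41.9, others 25.3 to 26.1), CENPQ (22.6, others 6.15 to 8.7), PCLAF (25.9), PBK (26.9), TOP2A (61.2), TMPO (68.2), EREG (194) and CLDN11 (315), and the lowest for HRAS (1856, others 2458 to 2512), SRM (63.2), KIFC1 (11.5), MMP2 (389), NPC1 (89.1), CDK2 (88.8) and LMNA (660). The other shAHCY_2 library that stood apart was replicate 60, for HJURP (16.8) and CHEK1 (28.7). In EV_4OHT, replicate 53 stood apart for ID1 (73.6), replicate 54 for CENPQ (4.32), replicate 55 for MYBL2 (0.268, others 0), STC2 (391) and DUSP5 (23.8), and replicate 56 for CDKN3 (5.79).

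The level with shAHCY_2 differed from that with shAHCY_4 by edgeR's quasi-likelihood test for 17 named genes. On the log2 scale, shAHCY_2 was higher for MIR30A (0.83), NRAS (0.53), MAT2B (0.49), TNFRSF11B (0.41), LCOR (1.0), ASPH (0.99), LCE2A (0.97), ID1 (0.93) and PTPRN (0.92). It was lower for IL1B (-0.51), AKR1B1 (-0.49), CNN1 (-0.72), G0S2 (-1.27), SRGN (-1.01), CCBE1 (-0.89), LRRC15 (-0.81) and TMEM119 (-0.78).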

How the results depend on the processing

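Of 130 named genes, 115 kept their direction and side of the threshold against EV_4OHT under every alternative run, 15 changed side in at least 1, and 0 changed direction across the threshold. Leaving out 1 library at a time gave 349 to 474 genes higher (529 with all) and 273 to 375 lower (415). The number lower was 702 with the GC trend removed. Without shAHCY_2 replicate 59, 823 genes were called, of which 696 were among the 944. Against shAHCY_4, the number higher (95) was 430 with no filter on low counts, 242 with the GC trend removed, 240 in DESeq2, 47 with only the groups compared, and 38 to 71 without 1 library. The number lower (73) was 123, 393, 247, 31, and 28 to 85 under the same settings. With fewer libraries or groups in a fit, fewer samples estimate the spread, and the cause of the other shifts was not tested. The 3314 genes higher and 3188 lower than EV stayed within 1.5 times under every alternative. No paired analysis was possible because the groups share no replicate numbers. Depth limits genes under a few CPM, such as MYBL2, E2F8 and IL6.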
